A study of Mus musculus with 56 samples.

Results

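The comparison is between whole colon of Tweak knockout (KO) mice 24 h after ionizing radiation and whole colon of Tweak KO mice labelled 0 h. The 10 arrays were taken by sample title, 5 at 24 h and 5 at 0 h, out of 28 colon arrays and 56 arrays in the whole series, which also holds wild-type (WT) mice, a 6 h time and jejunum. All mice were BALB/C, and the treatment of every group is labelled as 3 Gy, the 0 h groups included. The labels do not say whether 0 h mice were irradiated and killed at once or not irradiated. Each array is a different mouse per the series' design. The labels call the genotype a Tweak knockout and do not describe the allele, and they give no age or sex for the mice.

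The Tnfsf12 gene encodes Tweak, a TNF-like ligand, whose receptor Fn14 is the product of Tnfrsf12a. Radiation breaks DNA, which stabilises the transcription factor p53. In the intestinal crypt p53 then raises genes of cell cycle arrest, cell death and repair, while genes of mitosis fall as cycling stops. The comparison shows what this programme looked like a day after radiation in colon that lacks Tweak, and expression is given throughout as the deposited log2 signal of 1 probe set per gene. A change is the KO 24 h mean minus the KO 0 h mean on that scale, with its standard error (SE) from limma.

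The targeted gene was low in all 10 arrays. The probe set of Tnfsf12, which is also annotated to the Tnfsf12-Tnfsf13 readthrough, had 2.70, 2.81, 2.32, 2.76 and 2.32 in the KO 24 h arrays and 2.32, 2.56, 2.46, 2.68 and 2.56 in the KO 0 h arrays, close to the floor of 2.28 of the colon table. KO colon was lower than WT colon by log2 -1.68 ± 0.172 (SE, limma adjusted p = 3.49e-06) at 24 h and by -1.66 ± 0.162 (adjusted p = 1.56e-06) at 0 h. A different probe set, which is shared with Tnfsf13, stood between 6.93 and 7.35 in KO 24 h colon and between 7.27 and 7.93 in KO 0 h colon, and its level did not pass the test between genotypes at either time (adjusted p = 0.945 at 24 h and 1 at 0 h). Tnfrsf12a, the receptor, did not pass the test: it lay at 5.96, 5.46, 5.72, 6.57 and 6.02 in KO 24 h colon and at 5.66, 5.95, 5.94, 6.22 and 6.10 in KO 0 h colon (adjusted p = 1).

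One array stood apart before any test. The array labelled KO 0 h replicate 3 had a mean log2 signal of 8.30 over the 14 p53 targets of arrest and feedback, inside the range of the KO 24 h arrays (8.16 to 8.33) and above the other 4 KO 0 h arrays (7.24 to 7.35). It also lay low for mitosis genes and high for interferon genes. Each result is therefore given with all arrays and without this array. The array was left out for its own values, so the p-values without it are no independent test, and whether its label is right was not tested. In the array file names, KO 0 h replicate 1 shares a batch with the WT arrays, and the other 14 KO colon arrays share another batch. Leaving that array out keeps the comparison within 1 batch and gives 12 called genes, or 120 when replicate 3 is left out too. Transcripts of exocrine pancreas were high in KO 24 h replicate 3 (mean 9.70 over 11 genes) and KO 0 h replicate 5 (8.26), against 3.54 to 3.74 in the other 8 arrays. Fat genes ranged from 5.74 to 9.84 in KO 24 h colon and from 8.26 to 10.7 in KO 0 h colon. Colonic surface epithelium genes were level, between 11.7 and 11.9 in KO 24 h colon and between 11.7 and 11.8 in KO 0 h colon, in keeping with the tissue label. In bulk tissue, fewer cells of a type and less RNA per cell cannot be told apart.

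With all 10 arrays, 25 of 13645 genes passed the test (0.183%; limma, Benjamini-Hochberg adjusted p under 0.05), 19 higher (0.139%) and 6 lower (0.044%) at 24 h. Without KO 0 h replicate 3, 140 genes passed (1.03%), 78 higher (0.572%) and 62 lower (0.454%). All 25 genes of the first test were also called in the second, in the same direction. Among the named genes, the largest rises without replicate 3 were those of Csta1 and Ms4a10, which are in no p53 list. The p53 targets Eda2r, Phlda3 and Ddit4l followed. The genes that fell included the mitotic genes Ccnb2 and Cenpa, the urea cycle gene Otc and the gasdermin gene Gsdmc2. With the arrays high in pancreas transcripts also left out, a choice made after seeing the data, 78 genes passed without replicate 3, 73 of them among the 140, and 0 passed with replicate 3 kept (limma; 961 at an unadjusted p under 0.05).

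**Figure D1:**
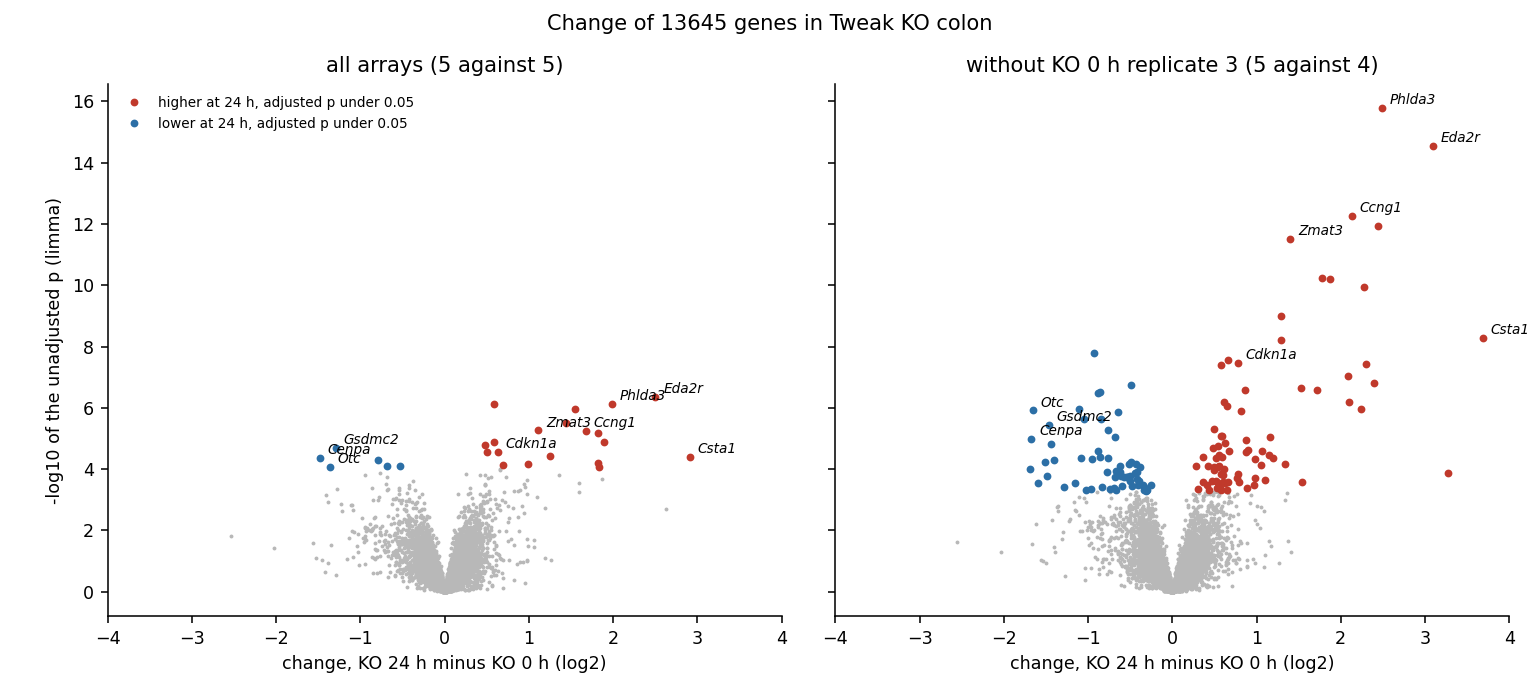
Change of each of 13645 genes in Tweak KO colon, 24 h minus 0 h (log2, x axis), against -log10 of the unadjusted limma p (y axis), with all arrays on the left and without KO 0 h replicate 3 on the right. Red points are higher and blue points lower at 24 h at an adjusted p under 0.05: 19 and 6 on the left, 78 and 62 on the right.

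The p53 targets were followed in 3 lists, of arrest and feedback, of cell death, and of metabolism, repair and stress, which hold 46 tested genes together. With all arrays 12 of the 46 rose and none fell (0.139% of all genes rose), and without replicate 3, 19 of the 46 rose (0.572% of all genes). The median change of the 46 genes was 0.38 with all arrays and 0.48 without replicate 3, against 0.00 over all genes. Without replicate 3, 9 of the 14 arrest and feedback genes had every KO 24 h value above every KO 0 h value, as did 2.4% of all genes, and with all arrays 0 did, against 0.623% of all genes. The lists were written with earlier results of these data known, so their counts are a description.

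Promoter windows are shown for 3 called p53 targets and for 2 called mitotic genes, because these genes carry the rise and the fall and the windows hold the motifs searched. Each is the 250 bases before the RefSeq gene start on GRCm38.p6, written 5′ to 3′ on the gene's strand. They are chr17:29090729-29090978 (+) for Cdkn1a, chr11:40755287-40755536 (-) for Ccng1, chr3:137623422-137623671 (+) for Ddit4l, chr9:70421555-70421804 (-) for Ccnb2 and chr1:139454523-139454772 (+) for Aspm. Capitals mark the p53 decamer in the first 3, and in the last 2 the CCAAT box (CCAAT or ATTGG) and the cell cycle genes homology region (CHR, TTTGAA or TTCAAA).
Cdkn1a: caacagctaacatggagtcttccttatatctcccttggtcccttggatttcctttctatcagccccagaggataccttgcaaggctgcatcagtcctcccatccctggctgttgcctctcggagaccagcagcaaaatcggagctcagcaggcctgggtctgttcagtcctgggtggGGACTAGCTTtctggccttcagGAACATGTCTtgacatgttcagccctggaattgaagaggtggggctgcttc
Ccng1: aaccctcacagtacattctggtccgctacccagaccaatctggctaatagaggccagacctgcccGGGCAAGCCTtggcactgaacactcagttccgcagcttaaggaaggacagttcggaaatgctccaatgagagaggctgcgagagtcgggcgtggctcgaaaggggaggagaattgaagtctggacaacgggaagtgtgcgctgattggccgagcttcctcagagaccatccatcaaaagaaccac
Ddit4l: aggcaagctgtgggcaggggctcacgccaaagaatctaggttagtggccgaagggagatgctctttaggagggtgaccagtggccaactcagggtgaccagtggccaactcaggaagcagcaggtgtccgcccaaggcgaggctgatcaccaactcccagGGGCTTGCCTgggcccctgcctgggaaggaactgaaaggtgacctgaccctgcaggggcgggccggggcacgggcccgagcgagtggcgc
Ccnb2: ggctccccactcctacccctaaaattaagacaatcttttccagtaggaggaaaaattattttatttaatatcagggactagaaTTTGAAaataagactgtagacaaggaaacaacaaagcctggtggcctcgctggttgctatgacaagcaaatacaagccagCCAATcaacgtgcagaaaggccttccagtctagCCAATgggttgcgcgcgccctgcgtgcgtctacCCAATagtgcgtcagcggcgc
Aspm: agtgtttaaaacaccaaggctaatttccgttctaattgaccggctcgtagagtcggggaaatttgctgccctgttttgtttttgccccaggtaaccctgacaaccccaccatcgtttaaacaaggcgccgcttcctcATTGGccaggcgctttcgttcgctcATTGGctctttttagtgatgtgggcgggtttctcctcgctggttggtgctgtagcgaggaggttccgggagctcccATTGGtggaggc

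The p53 decamer is the core motif that p53 binds in pairs, and it reads the same on both strands. Cdkn1a held a pair of decamers, starting 73 and 51 bases before the gene start. The stretch right after the decamer at 51 differs from the searched pattern in its first letter only. It was not marked, so the marked pair need not be the pair that p53 binds. Ccng1 and Ddit4l held 1 decamer each, 185 and 90 bases before the gene start. Of the 17 called p53-list genes with a RefSeq promoter, 6 held a decamer (35.3%), and of all 38 tested p53-list genes with one, 8 did (21.1%), against 6.15% of 10950 promoters of tested genes and 7.18% of all 27018 promoters. A pair at most 13 bases apart occurred in Cdkn1a alone among the 17, and in 0.0274% of promoters of tested genes. The windows of Eda2r and Phlda3 held no decamer, which says only that these letters are not in this window. Ccnb2 held a CHR and 3 CCAAT boxes, and Aspm held 3 CCAAT boxes. Of 38 mitosis genes with a promoter, 26.3% held a CHR, 68.4% a CCAAT box and 23.7% both, against 10.7%, 35.7% and 3.87% of promoters of tested genes. Of the 38 p53-list genes 10.5% held a CHR, 57.9% a CCAAT box and 7.89% both. Both strands were searched, a CHR and a CCAAT box can share an end letter at most, and a match is a description and not a bound site.

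Among targets of arrest and feedback, 6 of 14 rose with all arrays and 9 of 14 without replicate 3 (median change 0.49 and 0.60). Phlda3, a repressor of Akt signalling, had 7.85, 7.97, 8.17, 8.16 and 8.03 in KO 24 h colon and 5.28, 5.42, 8.04, 5.78 and 5.73 in KO 0 h colon. Its KO 0 h values lay below every KO 24 h value except in replicate 3. The change was 1.99 ± 0.304 (SE, adjusted p = 0.00351) with all arrays and 2.48 ± 0.123 (2.3e-12) without replicate 3, a 5.6-fold rise. Ccng1, cyclin G1, which recruits a phosphatase to Mdm2, had 11.72, 11.97, 11.97, 11.96 and 11.93 in KO 24 h colon and 9.94, 9.59, 12.05, 9.72 and 9.88 in KO 0 h colon. Here replicate 3 at 0 h was the highest of all 10 arrays. Ccng1 rose by 1.68 ± 0.293 (adjusted p = 0.0113) with all arrays and by 2.13 ± 0.153 (2.5e-09) without replicate 3.

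Psrc1, a microtubule-associated protein of the spindle, had 5.51, 5.50, 5.98, 6.07 and 5.69 in KO 24 h colon and 2.94, 3.56, 5.74, 3.73 and 3.68 in KO 0 h colon. It rose by 1.82 ± 0.322 (adjusted p = 0.0116) and, without replicate 3, by 2.28 ± 0.211 (2.01e-07). Plk2, a polo-like kinase of the stress response, and Zmat3, an RNA-binding protein, followed the same order. Plk2 rose by 1.55 ± 0.242 and by 1.87 ± 0.169 without replicate 3, and Zmat3 by 1.11 ± 0.193 and 1.40 ± 0.109 (adjusted p between 8.34e-09 and 0.0113). Cdkn1a encodes p21, the inhibitor that holds cyclin-dependent kinases in arrest. It had 11.29, 11.36, 11.48, 11.41 and 11.50 in KO 24 h colon and 10.54, 10.82, 11.37, 10.49 and 10.67 in KO 0 h colon. The rise of Cdkn1a was small beside that of the genes above, 0.63 ± 0.123 (adjusted p = 0.0272) with all arrays and 0.78 ± 0.0976 (3.27e-05) without replicate 3, a 1.72-fold rise from a level above log2 10 at 0 h.

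Mdm2, the ligase that marks p53 for degradation, had 8.05, 8.10, 7.95, 7.92 and 7.82 in KO 24 h colon and 7.47, 7.61, 8.11, 7.32 and 7.49 in KO 0 h colon. It was called only without replicate 3 (0.50 ± 0.107, adjusted p = 0.0177; 0.37 and 0.339 with all arrays). Sesn2, a sensor of oxidative and nutrient stress, and Trp53inp1, a cofactor of p53, were likewise called only without replicate 3, at 0.58 and 0.62. Of the 5 members called in neither test, Gtse1 had a change of 0.59 and Btg2 of 0.33 without replicate 3, while Sesn1, Ccng2 and Ppm1d lay between -0.07 and 0.08.

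**Figure D2:**
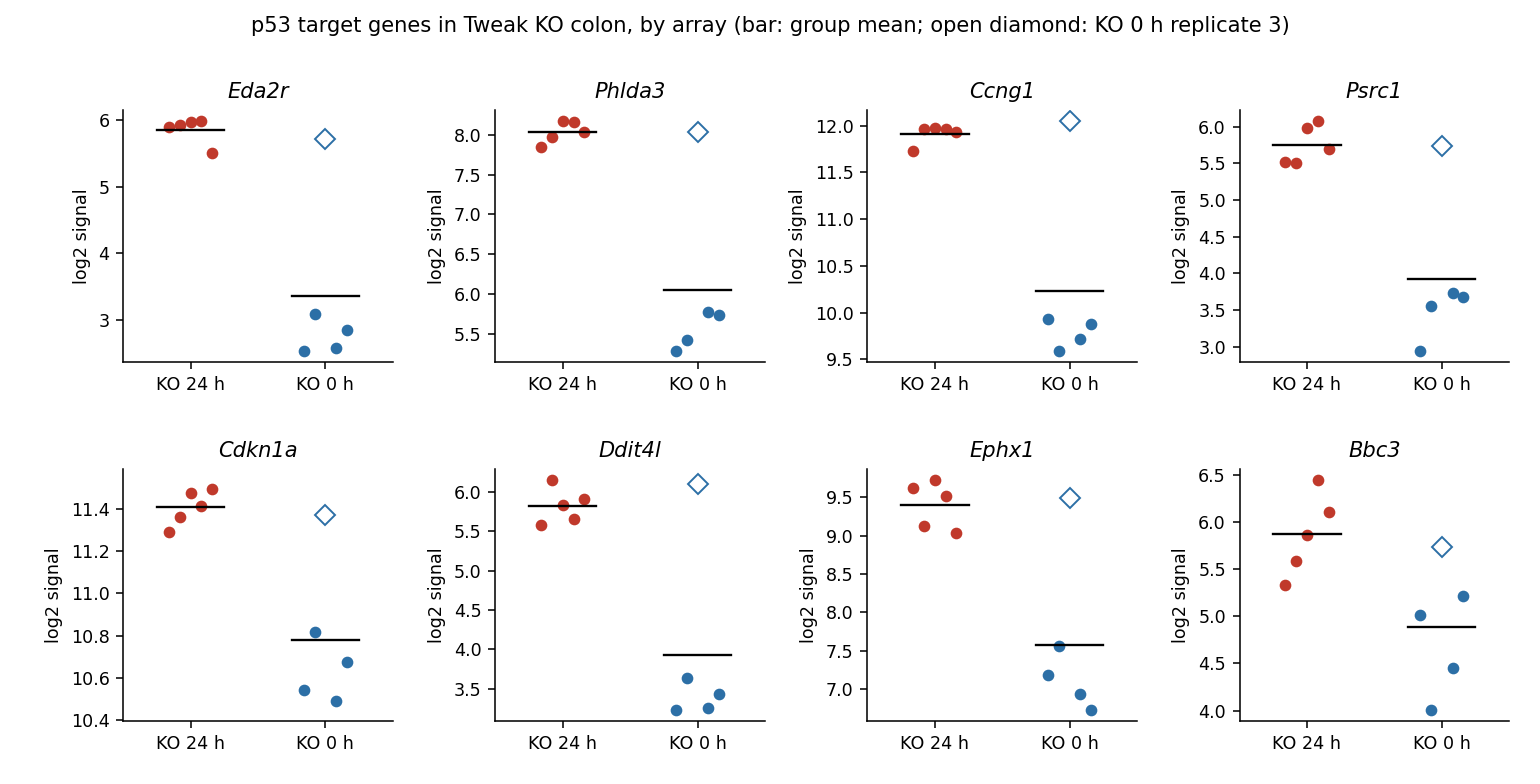
Log2 signal (y axis) of 8 p53 target genes in each Tweak KO colon array, 24 h on the left and 0 h on the right of each panel, with the group mean as a bar and KO 0 h replicate 3 as an open diamond. In all 8 panels the other 4 KO 0 h arrays lie below every KO 24 h array, and the diamond lies within or above the range of the 24 h arrays.

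Among targets of cell death, 3 of 10 rose with all arrays and 5 of 10 without replicate 3, Trp53inp1 (above) being in this list too, and all 10 changes were positive. Eda2r, a receptor of the TNF family that binds ectodysplasin A2, had 5.90, 5.93, 5.97, 5.98 and 5.51 in KO 24 h colon and 2.54, 3.09, 5.71, 2.58 and 2.85 in KO 0 h colon. The 4 other KO 0 h values lay at or under 3.09, and that of replicate 3 was among the 24 h values. The change was 2.50 ± 0.371 (adjusted p = 0.00351) with all arrays and 3.09 ± 0.174 (1.97e-11), an 8.53-fold rise, without replicate 3. Aen, a nuclease that takes part in apoptosis, rose by 1.44 ± 0.242 (adjusted p = 0.00859) and by 1.78 ± 0.16 without replicate 3 (1.23e-07). Ei24, a protein of the endoplasmic reticulum, rose by 0.48 ± 0.0902 and 0.58 ± 0.0737. Bbc3 encodes Puma, a BH3-only activator of apoptosis, and had 5.33, 5.59, 5.86, 6.45 and 6.11 in KO 24 h colon and 5.02, 4.01, 5.74, 4.46 and 5.21 in KO 0 h colon. It was called only without replicate 3 (1.19 ± 0.24, adjusted p = 0.00994; 0.98 ± 0.252, 0.123 with all arrays).

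Fas, the death receptor, did not pass the test in KO colon, with 6.95, 6.70, 6.88, 7.07 and 6.95 at 24 h and 6.75, 6.86, 6.94, 6.86 and 6.58 at 0 h (0.15 ± 0.132 without replicate 3, adjusted p = 0.768). In WT colon Fas was called higher (0.63, adjusted p = 0.0056), but the KO change minus the WT change, -0.49, did not pass its own test (adjusted p = 0.51 without replicate 3). Of the 14 tested genes of the Bcl2 family, only Bbc3 was called, without replicate 3. Of 25 tested genes of Tweak and TNF family signalling, only Eda2r was called, in both tests, and the median of that list was 0.02 with all arrays and 0.01 without replicate 3.

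Among targets of metabolism, repair and stress, 3 of 23 rose with all arrays and 6 of 23 without replicate 3. Ddit4l, an inhibitor of mTORC1, had 5.58, 6.15, 5.84, 5.66 and 5.91 in KO 24 h colon and 3.23, 3.64, 6.11, 3.25 and 3.43 in KO 0 h colon. It rose by 1.89 ± 0.351 (adjusted p = 0.0181) and, without replicate 3, by 2.44 ± 0.181 (3.95e-09). Ephx1 encodes microsomal epoxide hydrolase, a detoxifying enzyme. Its values were 9.62, 9.12, 9.73, 9.52 and 9.04 in KO 24 h colon and 7.18, 7.56, 9.49, 6.94 and 6.73 in KO 0 h colon, for a change of 1.82 ± 0.38 (adjusted p = 0.0451) and 2.30 ± 0.289 (3.32e-05) without replicate 3. Dglucy, D-glutamate cyclase, rose by 1.84 ± 0.393 and 2.24 ± 0.346. Polk, a translesion DNA polymerase, Dcxr, a carbonyl reductase, and Ercc5, a nuclease of nucleotide excision repair, were called only without replicate 3, at 0.87, 0.81 and 0.56. Of the 23 changes 5 were negative, and none of those passed the test.

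Several of the largest rises were in none of the p53 lists, which hold 19 of the 78 genes that rose without replicate 3. Csta1, a cystatin that inhibits cysteine proteases and has near-identical copies in the mouse, had 7.59, 7.98, 8.50, 8.35 and 8.18 in KO 24 h colon and 4.75, 3.48, 8.32, 4.51 and 4.99 in KO 0 h colon. Which copies the probe set reads was not tested. Its change of 3.69 ± 0.416 (adjusted p = 7.01e-06), a 12.9-fold rise, was the largest without replicate 3, against 2.91 ± 0.585 (0.0336) with all arrays. Ms4a10, a membrane protein of the MS4A family, had 6.56, 6.68, 7.38, 6.74 and 6.25 in KO 24 h colon and 3.05, 4.10, 6.72, 3.44 and 3.19 in KO 0 h colon. It passed only without replicate 3 (3.28 ± 0.72, adjusted p = 0.0205).

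Cma1 encodes mast cell chymase, and it had 4.99, 4.79, 6.46, 4.63 and 4.23 in KO 24 h colon and 2.89, 2.28, 5.30, 2.75 and 2.57 in KO 0 h colon. It rose without replicate 3 by 2.40 ± 0.327 (adjusted p = 0.000114) and missed the threshold with all arrays (1.86 ± 0.428, 0.0726). The other 2 tested mast cell genes changed little and were not called: Kit by -0.08 and Tpsb2 by -0.01 without replicate 3. At 6 h, Cma1 in KO colon was still at 2.92, 3.51, 3.54, 2.98 and 3.13, and the 24 h arrays were higher than these by 1.80 ± 0.428 (adjusted p = 0.0367). Ly6e, a surface protein that interferon raises, had 10.06, 9.94, 10.51, 10.53 and 9.35 in KO 24 h colon and 8.02, 7.56, 10.44, 8.26 and 8.16 in KO 0 h colon. It rose without replicate 3 by 2.08 ± 0.277 (adjusted p = 7.56e-05) and not with all arrays (1.59 ± 0.377, 0.0919).

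**Figure D3:**
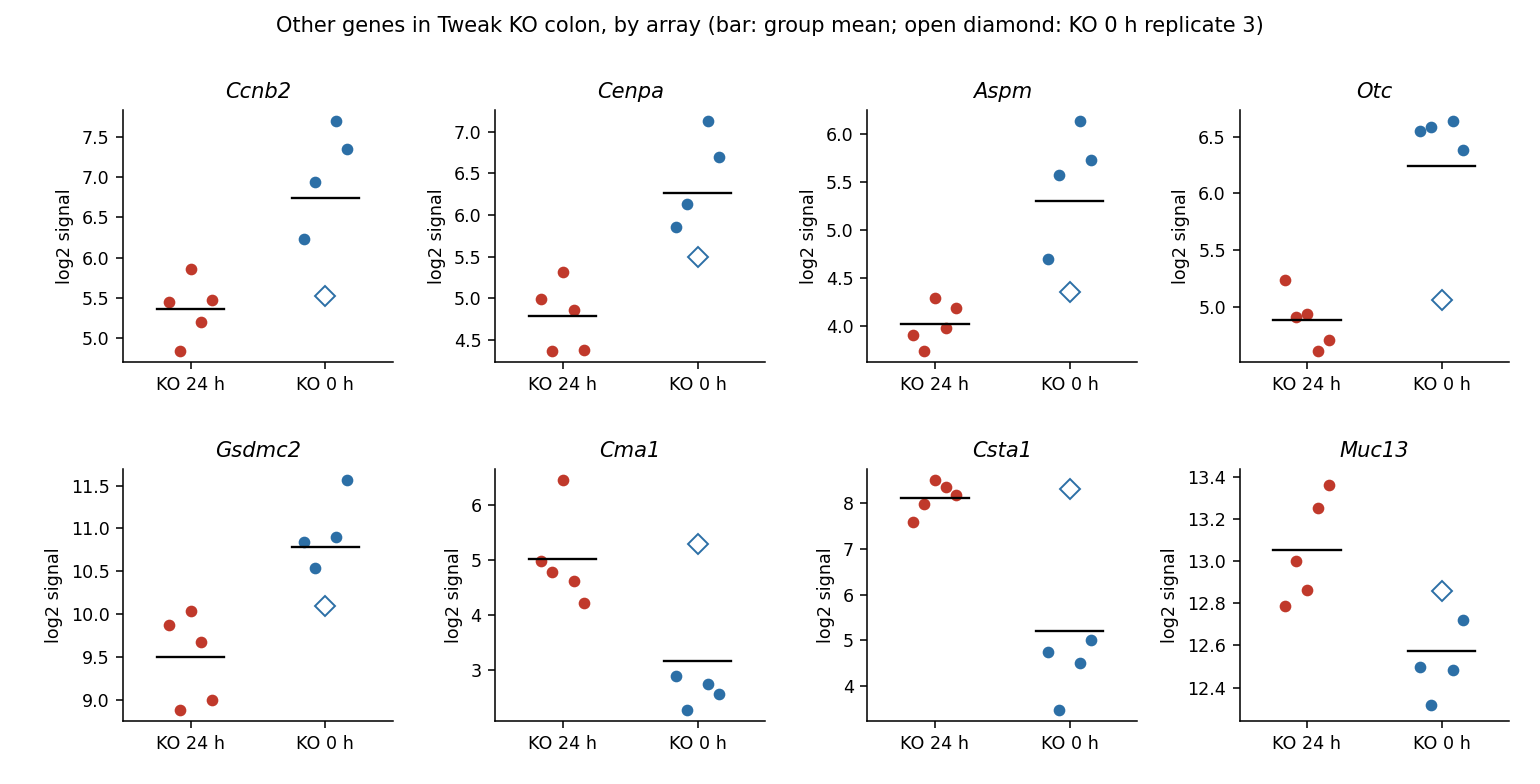
Log2 signal (y axis) of 8 genes outside the p53 lists in each Tweak KO colon array, 24 h on the left and 0 h on the right of each panel, with the group mean as a bar and KO 0 h replicate 3 as an open diamond. Ccnb2, Cenpa, Aspm, Otc and Gsdmc2 are lower and Cma1, Csta1 and Muc13 higher at 24 h than in the other 4 KO 0 h arrays, and the diamond is on the 24 h side of those 4 arrays in every panel.

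Genes of mitosis had negative changes throughout. Of 44 tested, 43 changes were negative with all arrays (median -0.69) and all 44 without replicate 3 (median -0.85), while only Cenpa passed the test with all arrays and Cenpa, Ccnb2, Aspm and Cdkn3 passed without replicate 3 (0.044% and 0.454% of all genes fell). At an unadjusted p under 0.05 (limma), 28 and 31 of the 44 were lower, against 551 and 814 of all 13645 genes. The mean level of the list was 4.70 to 5.14 in KO 24 h colon and 5.26 to 6.23 in 4 KO 0 h arrays, with replicate 3 at 4.98. Without replicate 3, 21 of the 44 had every KO 24 h value below every KO 0 h value (2.87% of all genes), and 6 did with all arrays (0.55%). The KO 0 h arrays differed among themselves by more than the KO 24 h arrays did (SD 0.437 without replicate 3, n = 4, and 0.181 at 24 h, n = 5).

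Cenpa, the histone variant of the centromere, had 4.99, 4.36, 5.32, 4.85 and 4.38 in KO 24 h colon and 5.85, 6.14, 5.49, 7.13 and 6.70 in KO 0 h colon. Its groups did not overlap even with replicate 3 kept. The change was -1.48 ± 0.299 (adjusted p = 0.0336) with all arrays and -1.67 ± 0.301 (0.00334) without replicate 3. Ccnb2, a B-type cyclin that drives entry into mitosis, had 5.45, 4.83, 5.85, 5.20 and 5.48 in KO 24 h colon and 6.23, 6.94, 5.51, 7.70 and 7.35 in KO 0 h colon. The change was -1.39 ± 0.378 (adjusted p = 0.162) with all arrays and -1.69 ± 0.363 (0.0168) without replicate 3. Aspm, a spindle pole protein, and Cdkn3, a phosphatase of cyclin-dependent kinases, changed by -1.51 ± 0.311 and -1.48 ± 0.334 without replicate 3. The spindle genes Knstrn and Kif22, which are in no list, also fell without replicate 3 (changes of -1.44 and -0.97).

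Other proliferation genes did not pass. Mki67, the Ki-67 antigen, had 7.94, 7.92, 8.36, 7.77 and 8.37 in KO 24 h colon and 8.72, 8.89, 8.08, 9.56 and 9.20 in KO 0 h colon (-1.02 ± 0.277, adjusted p = 0.0805 without replicate 3). Its 24 h values all lay below those of the 4 other KO 0 h arrays. Plk1 and Ccna2 had changes of -0.999 and -1.22 (adjusted p = 0.296 and 0.154). No gene of 44 for DNA replication passed in either test (limma; at an unadjusted p under 0.05, 0 with all arrays and 3 lower without replicate 3), and the median was -0.02 and -0.03. Mcm6, a subunit of the replicative helicase, and Pcna, the sliding clamp, had changes of 0.16 and 0.04 without replicate 3. Crypt stem cell and Wnt genes went both ways: of 22 tested, 14 changes were positive and 8 negative without replicate 3 (median 0.08). Of the 22, 2 fell and none rose (0.454% of all genes fell and 0.572% rose). Of these the stem cell marker Smoc2 fell without replicate 3 (-0.54 ± 0.122, adjusted p = 0.0262), as did Nrep in both tests (-0.86 ± 0.171, 0.00986). The stem cell markers Lgr5 (-0.34) and Ascl2 (-0.50) were not called, and Olfm4 stood at the floor in all 10 arrays.

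**Figure D4:**
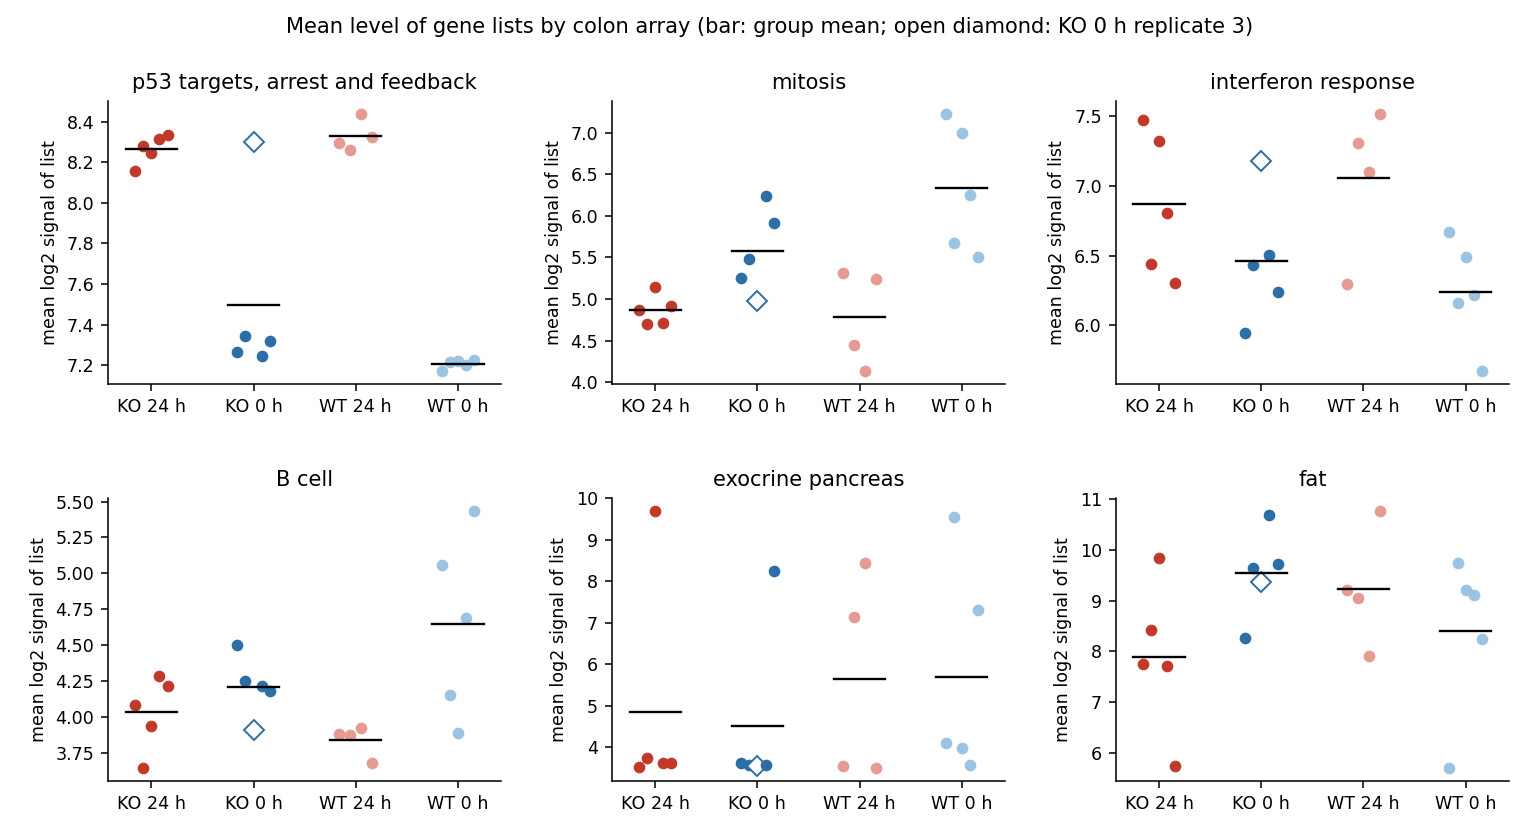
Mean log2 signal (y axis) of the tested genes of 6 lists in each colon array, by group (KO 24 h, KO 0 h, WT 24 h, WT 0 h), with the group mean as a bar and KO 0 h replicate 3 as an open diamond. The diamond is with the 24 h arrays for p53 targets (8.30) and mitosis (4.98), and pancreas genes are high in 1 KO 24 h array (9.70) and 1 KO 0 h array (8.26).

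Among the other falls, Otc, the urea cycle enzyme ornithine transcarbamylase, had 5.24, 4.91, 4.94, 4.61 and 4.71 in KO 24 h colon and 6.55, 6.59, 5.07, 6.63 and 6.38 in KO 0 h colon. The change of Otc was -1.36 ± 0.29 (adjusted p = 0.0476) with all arrays and -1.65 ± 0.257 (0.000553) without replicate 3. Gsdmc2, gasdermin C2, of a family of pore-forming proteins, had 9.87, 8.89, 10.04, 9.68 and 9.003 in KO 24 h colon and 10.85, 10.54, 10.09, 10.90 and 11.56 in KO 0 h colon. Even the lowest KO 0 h value, again that of replicate 3, was above every 24 h value. The change was -1.29 ± 0.247 (adjusted p = 0.0237) and -1.47 ± 0.245 (0.00143) without replicate 3. Gsdmd, the gasdermin of pyroptosis, moved the other way, by 0.47 ± 0.11 (adjusted p = 0.0321) without replicate 3.

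Of 31 tested genes of amino acid, urea and gluconeogenic metabolism, 9 fell without replicate 3 (0.454% of all genes fell) and 2 with all arrays (0.044%), and 25 of the 31 changes were negative, with a median of -0.29. They included Otc, Aspg, an asparaginase (-1.05 ± 0.17), and Pck2, the mitochondrial phosphoenolpyruvate carboxykinase. Pck2 had 6.84, 6.73, 7.03, 7.06 and 6.82 in KO 24 h colon and 7.32, 7.61, 6.98, 7.75 and 7.50 in KO 0 h colon, and fell in both tests (-0.53, adjusted p = 0.0476, and -0.64, 0.000575). Of 20 genes of pyruvate dehydrogenase and the citric acid cycle, 3 fell without replicate 3 (0.454% of all genes) and 0 with all arrays. At an unadjusted p under 0.05 (limma), 8 were lower with all arrays, against 551 of all 13645 genes. Without replicate 3, 18 of the 20 changes were negative, with a median of -0.17. Both lists were written after values had been seen, so their counts only describe the genes.

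In the surface, goblet and enteroendocrine lists 1 gene each passed, without replicate 3 only, where 0.572% of all genes rose and 0.454% fell. The changes within these lists went both ways. Muc13, a transmembrane mucin, had 12.79, 13.002, 12.86, 13.25 and 13.36 in KO 24 h colon and 12.50, 12.32, 12.86, 12.48 and 12.72 in KO 0 h colon, and was called without replicate 3 (0.55 ± 0.108, adjusted p = 0.00866). It was the 1 called of 25 colonic surface epithelium genes, of which 12 had negative changes. Tff3, a trefoil peptide of goblet cells, was 1 of 19 goblet cell genes called (0.31 ± 0.0763, 0.0469; 7 of the 19 negative, list median 0.06), and Chgb, a granin of enteroendocrine cells, 1 of 19 enteroendocrine genes (0.60 ± 0.14, 0.0325; 4 of the 19 negative, list median 0.14), again without replicate 3 only. Piezo2, a mechanosensitive channel, was called in both tests (0.58 ± 0.108 and 0.62 ± 0.114). All 23 tested interferon response genes had positive changes in both tests, with medians of 0.40 and 0.64, but 0 passed with all arrays (limma; 1 at an unadjusted p under 0.05), and Rsad2, an antiviral enzyme, alone passed without replicate 3 (1.11 ± 0.256, adjusted p = 0.0315). The mean level of the interferon list overlapped between groups, at 6.30 to 7.48 in KO 24 h colon and 5.95 to 7.18 in KO 0 h colon. B cell genes had a median of -0.12 without replicate 3, and none of 15 passed (limma; 0 at an unadjusted p under 0.05).

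The KO 6 h arrays give a comparison whose change does not use the 0 h means. Its SE still comes from the fit to all colon arrays, so it includes the spread of the KO 0 h arrays with replicate 3 kept. For Phlda3 this SE was 0.304, the same as for 24 h against 0 h with all arrays. Without replicate 3, the SE of Phlda3 for 24 h against 0 h was 0.123. The comparison with 6 h is given only with replicate 3 kept. Between 24 h and 6 h in KO colon, 176 genes differed (1.29%; limma, adjusted p under 0.05), 68 higher (0.498%) and 108 lower (0.791%) at 24 h. Genes of another tissue moved with this comparison: 10 of 15 skeletal muscle genes were lower at 24 h, with a mean level of 2.94 to 3.90 in KO 24 h colon and 4.26 to 5.86 in KO 6 h colon. The mean level of squamous epithelium genes was 3.67 to 3.87 in KO 24 h colon and 4.15 to 5.99 in KO 6 h colon, with all 13 changes negative. Their part in the results below was not tested. Of the 44 mitosis genes 9 were lower at 24 h than at 6 h and all 44 changes were negative, with a median of -0.80. Ube2c, which marks mitotic cyclins for degradation, was lower by -1.85 ± 0.397 (adjusted p = 0.02), Cenpa by -1.58 ± 0.299 (0.00903) and Aspm by -1.49 ± 0.317 (0.0191). Of the 46 p53-list genes 1 differed, Ckap2, a spindle protein, at -1.37 ± 0.272 (0.0139), and the median was -0.22. That count cannot show that the other p53-list genes stayed level, because replicate 3 widened the SE of p53 targets in which it stood apart. Ddit4l, for example, changed by -0.73 ± 0.351 between 24 h and 6 h. Its SE for 24 h against 0 h was 0.181 without replicate 3. Of 22 crypt stem cell and Wnt genes, 12 had positive and 10 negative changes between 24 h and 6 h (median 0.10), and 4 were called, all higher at 24 h: Axin2 by 0.68, Ephb3 by 0.74, Cdca7 by 0.63 and Nkd1 by 0.62 (adjusted p between 0.0330 and 0.0447). Against 0 h, 25 of the 46 p53-list genes rose at 6 h with all arrays (1.26% of all genes rose and 0.22% fell; 1.48% in all) and 26 without replicate 3 (1.33% rose and 0.344% fell; 1.67% in all). Their median change was 0.67 at 6 h and 0.38 at 24 h with all arrays, and 0.78 and 0.48 without replicate 3, where both times share the 0 h arrays. Phlda3 stood at 8.04 to 8.44 at 6 h and Ccnb2 at 6.38 to 7.07.

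In WT colon, 722 genes were called between 24 h and 0 h (5.29%), 379 higher (2.78%) and 343 lower (2.51%). Genes of the proximal small intestine were high in WT 0 h replicates 2 and 3 (mean levels 10.9 and 8.09), against 5.22 to 6.21 in WT 24 h colon and 5.45 to 6.36 in the other WT 0 h arrays, and their part in the WT changes was not tested. Without WT 0 h replicate 2 the WT count was 830, and without replicate 3 it was 418. Of the 78 genes that rose in KO colon without replicate 3, 53 also rose in WT colon (67.9% of the KO list and 14% of the WT list), and 75 had a positive WT change. Of the 62 that fell, 27 also fell in WT colon (43.5% and 7.9%), and 59 had a negative WT change. The KO and WT changes share no array, and their Pearson correlation across 13645 genes was 0.45, which describes genes and not replicates.

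No p53-list gene passed the test of the difference between the KO and WT changes. Eda2r changed by 3.09 in KO colon without replicate 3 and by 3.06 in WT colon, Ccng1 by 2.13 and 2.11, and Zmat3 by 1.40 and 1.42. Cdkn1a changed by 0.78 in KO colon and 1.19 in WT colon and Ephx1 by 2.30 and 2.99, and neither difference passed its test (adjusted p = 0.456 and 0.692 without replicate 3). Bbc3 changed by 1.19 in KO colon and 0.87 in WT colon, and Dglucy by 2.24 and 1.92 (adjusted p of the difference 0.825 and 0.896). Mitosis genes changed by a median of -0.85 in KO colon and -1.56 in WT colon, where 41 of 44 were called lower. The mean level of that list ranged from 4.98 to 6.23 in KO 0 h arrays and from 5.50 to 7.23 in WT 0 h arrays. The difference of the changes, KO minus WT, passed its own test for 4 genes with all arrays (0.0293%; 0.0147% higher and 0.0147% lower) and for 1 without replicate 3 (0.00733%), and Pttg1 was the 1 mitosis gene of 44 among them, with all arrays. All 44 differences were positive with all arrays (median 0.80), against 6614 of all 13645 genes (median -0.01). Replicate 3, which was low for mitosis genes, was kept in that count and median. At an unadjusted p under 0.05 (limma), 13 of the 44 were higher with all arrays and 7 without replicate 3, against 465 and 419 of all genes. Nnat, neuronatin, changed by -1.16 in KO colon and by 0.46 in WT colon, and the difference did not pass (adjusted p = 0.248 without replicate 3).

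**Figure D5:**
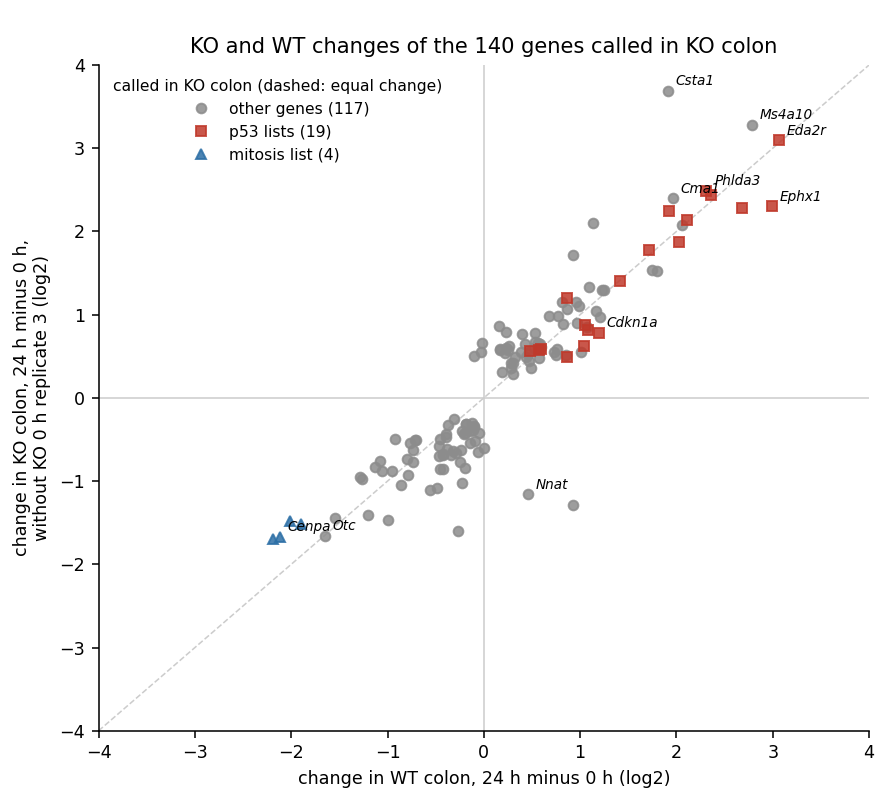
Change from 0 h to 24 h in Tweak KO colon without KO 0 h replicate 3 (log2, y axis) against the change in WT colon (log2, x axis) for the 140 genes called in KO colon, with p53-list genes as red squares, mitosis genes as blue triangles, other genes in grey and equal change as a dashed line. The 75 of 78 risen and 59 of 62 fallen genes that moved the same way in WT colon lie in the upper right and lower left.

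The 4 genes called for the difference of changes with all arrays were Tnfsf13os, Pttg1, Apod and Klf10. Tnfsf13os, an antisense transcript at the Tnfsf13 locus next to the targeted gene, was at 2.28 to 2.60 in KO 24 h colon and 2.28 to 2.45 in KO 0 h colon, at or near the floor, against 4.37 to 4.80 in WT 24 h colon and 5.43 to 6.31 in WT 0 h colon. It was the 1 gene that still passed without replicate 3, but a change in KO colon could not be measured at the floor, so the call rests on the WT change of -1.36. Pttg1, securin, was at 10.62 to 10.71 in KO 24 h colon and 10.47 to 10.78 in KO 0 h colon, and at 8.02 to 9.06 in WT 24 h colon and 9.31 to 10.56 in WT 0 h colon (1.42, adjusted p = 0.019; 1.38, 0.059 without replicate 3). Klf10, a factor induced by TGF-beta, was at 7.77 to 8.03 in KO 24 h colon and 7.89 to 8.42 in KO 0 h colon, and at 8.25 to 8.72 in WT 24 h colon and 7.43 to 7.96 in WT 0 h colon (-1.004, 0.019; -0.998, 0.0523 without replicate 3). Apod, apolipoprotein D, was likewise at the floor in KO colon at both times, and its call rests on the WT change of 1.43. Genotype and batch nearly coincide in colon, so a level that differs between KO and WT cannot be told apart from batch.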

How the data were processed

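RNA from whole colon was hybridised to Affymetrix mouse arrays of 45101 probe sets. The values are the log2 signals deposited by the authors; the submitters' processing notes name RMA and GCRMA without versions or roles. The 27 mapped columns of the colon table equalled the series' value table. The values of 1 column that matched no sample title were not used, and KO 24 h replicate 3 came from the value table. The batch of that array was taken, by elimination, from the array file name of the unmatched column. Between 25.6% and 27.9% of probe sets per array stood at the floor of 2.28, and array medians were 3.14 to 3.24. The number of arrays limits the precision.

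The platform annotation gave 34958 probe sets 1 gene, 932 several and 9211 none. Per gene the probe set with the highest mean was kept, and the lowest 25% of genes were left out. Group means over all 28 colon arrays (6 groups) were fitted with limma 3.58.1 in R 4.3.3 (lmFit, eBayes with trend, two-sided, Benjamini-Hochberg at 0.05 over all 13645 genes), with and without KO 0 h replicate 3. The interaction is the KO change minus the WT change. Lists are described by counts and medians, without a test. Members and lists were chosen with earlier results of these data known. Named genes are, first, the genes called with all arrays, at most the 15 largest rises and 15 largest falls. Next come the 15 largest called rises and falls without replicate 3 in which KO 24 h and 0 h values did not overlap. Up to 6 called members of each list, called interactions and a fixed set complete them. Genes called between 24 h and 6 h, and the uncalled arrest and mast cell genes given to complete their lists, were named after values were seen.

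Same-numbered KO 24 h and 0 h arrays did not deviate together (r from -0.10 to 0.16 over genes), so numbers were not used as pairs. The fit was tested on simulated data with 50 changed genes per size: 66%, 92% and 100% of changes of log2 0.5, 1 and 2 were recovered with all arrays, with 12 false calls, and 52%, 90% and 98% without replicate 3, with 10. The simulated noise was normal and independent for each gene and array, and no simulated 0 h array stood apart as KO 0 h replicate 3 does. The shares recovered with all arrays therefore do not describe the real comparison with that array kept. Alternatives were each array left out, other filters, probe sets, variance models, scalings, a replicate block, batch, fewer groups and array weights. Promoters are RefSeq sequences of GRCm38.p6.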

Additional observations from a re-analysis of the deposited data

Results flagged for a closer look

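A value was set apart where 1 of the 5 arrays of a group lay far outside the other 4 (Dixon's test, gap over range above 0.71), which chance alone does for about 1 in 20 groups. Among 66 named genes, 6 KO 24 h groups and 21 KO 0 h groups met it. Many of these genes were named because they passed once KO 0 h replicate 3 was left out. That choice favours genes in which this array stands apart, so their count cannot be held against 1 in 20. Among 37 gene lists, 5 KO 24 h and 7 KO 0 h groups met it.

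The array labelled KO 0 h replicate 3 accounts for 18 of the 21 genes in the KO 0 h group. It was above the other 4 arrays for Aen (7.47), Ccng1 (12.05), Cma1 (5.30), Dcxr (9.30), Ddit4l (6.11), Dglucy (7.08), Eda2r (5.71), Ei24 (10.49), Ly6e (10.44), Ms4a10 (6.72), Phlda3 (8.04), Plk2 (7.72), Psrc1 (5.74), Sesn2 (5.53) and Zmat3 (8.09). It was below them for Aadac (4.18), Cyp39a1 (5.55) and Otc (5.07). Its mean level was also above the other 4 for the 3 p53 lists, of arrest and feedback (8.30, the others 7.24 to 7.35), cell death (7.60, 6.79 to 6.89) and metabolism, repair and stress (7.24, 6.58 to 6.75), and for mast cell genes (5.56, 4.58 to 4.70). The mast cell list holds 3 tested genes and Cma1 is 1 of them, so its mean is not separate from the Cma1 value. The array was below the other 4 for tuft cell genes (3.41) and proximal small intestine genes (4.79, the others 5.45 to 5.62). Over the 140 genes called without this array, its value was nearer to the KO 24 h mean than to the mean of the other KO 0 h arrays for 131 (93.6%), and inside the KO 24 h range for 104. Those genes were called without this array but partly from the arrays it is set against. In WT colon, an independent choice of genes, 379 genes rose and 343 fell; the array was nearer to the KO 24 h mean for 261 (68.9%) and 279 (81.3%) of them, against 60.2% of all genes. How it came to stand apart was not tested.

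In the KO 24 h group the single arrays set apart were Ccng1 in replicate 1 (11.7), Eda2r in replicate 5 (5.51), Lgr5 in replicate 2 (2.28), Nnat in replicate 3 (4.16), Sesn2 in replicate 3 (5.45) and Apod in replicate 4 (2.35). In the KO 0 h group the others were Mcm6 in replicate 2 (7.11), Lgr5 in replicate 4 (3.52) and Olfm4 in replicate 4 (2.28, a step at the floor). Gene lists set apart at 24 h were exocrine pancreas in replicate 3 (9.70, the others 3.54 to 3.74), skeletal muscle in replicate 2 (3.90, 2.94 to 3.06), heat shock in replicate 2 (10.5, 9.30 to 9.53), tuft cell in replicate 1 (3.40) and plasma cell in replicate 5 (7.61). At 0 h it was exocrine pancreas in replicate 5 (8.26, the others 3.55 to 3.62).

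By the test of the difference itself (limma interaction, all arrays), the difference of the 24 h changes of KO and WT colon was called for Tnfsf13os (1.49), Pttg1 (1.42), Apod (-1.41) and Klf10 (-1.004). Tnfsf13os and Apod lay at or near the floor in KO colon at both times, so these 2 values hold the WT change and no measurable KO change. For Pttg1, the probe set with the largest spread gave 1.43 with an adjusted p of 0.176. The adjusted p of Apod was 0.0294 with all arrays and over 0.05 in most fits that left out 1 array.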

How the results depend on the processing

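Called genes in KO colon at 24 h against 0 h numbered 25 with all arrays and 4 to 140 when 1 array was left out: 140 without KO 0 h replicate 3, and among the KO 0 h arrays 12, 4, 7 and 5 without replicates 1, 2, 4 and 5, and among the KO 24 h arrays 11, 15, 11 and 8 without replicates 2, 3, 4 and 5. They numbered 13 with no filter on low values, 5 over all probe sets, 12 with batch as a term, 102 with array weights, and 0 with the replicate block, with only the KO 0 h and 24 h arrays, with only the KO colon arrays and, added after seeing the data, without the arrays high in pancreas genes (limma; 1160, 1222, 1235 and 961 at an unadjusted p under 0.05). Without replicate 3, 140 genes became 89 (KO 0 h replicate 5 left out) to 137 when 1 more array was left out, 75 with only the KO 0 h and 24 h arrays, 355 with array weights, 78 without the arrays high in pancreas genes, and 11 with the replicate block. The interaction (4 genes) gave 1 to 12 when 1 array was left out, 12 when WT 24 h replicate 1 was dropped, 2 for WT 24 h replicate 2, and 1 for each of KO 0 h replicate 3, WT 24 h replicate 3 and KO 24 h replicate 2; it gave 2 with no filter, 2 with the stricter filter, 1 over all probe sets and 1 with the replicate block. Only the KO 0 h group holds arrays of both batches, with replicate 1 alone in that of the WT arrays. For KO colon at 24 h a batch term therefore in effect leaves out KO 0 h replicate 1, and both gave 12 genes. The batch term is no separate alternative there. Alternatives for the WT and the 6 h comparisons were added later. WT colon gave 722 genes, 327 to 1341 with 1 array left out (WT 0 h replicates 1, 3 and 5 left out gave 387, 418 and 1341, and WT 24 h replicates 2, 3 and 5 gave 415, 327 and 443) and 2 with the replicate block (1715 at an unadjusted p under 0.05). KO colon at 6 h against 0 h gave 202, 100 to 246 with 1 array left out (KO 0 h replicates 2, 4 and 5 left out gave 114, 118 and 100, and KO 6 h replicate 3 gave 129) and 0 with the replicate block (limma; 1555 at an unadjusted p under 0.05). The replicate block was fitted on the arrays of the compared groups alone. Its counts therefore mix the block with the loss of the other arrays. In KO colon at 24 h, the same arrays without the block gave 0 genes, and 75 without replicate 3. The numbers do not pair the mice, and why calls were lost under the block was not tested. Fits with fewer arrays did not always give fewer genes: without replicate 3, the KO colon arrays alone gave 184 against 140. Why the counts differed was not tested. No called value of a named gene or count changed direction in the alternatives run; of the named genes' and lists' values, 6027 kept their side of the threshold or stayed within 1 SD, 532 lost and 60 gained a call, and 26 list medians moved by over 1 SD. Probe sets at the floor hold no usable change.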
